A study of Mus musculus with 15 samples.

Results

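The genes described here are 10 mouse genes that respond to stress of the endoplasmic reticulum (ER) or to shortage of amino acids. They were taken from a list of known targets of the unfolded protein response and of the integrated stress response. The list was chosen with earlier results of these data known. The 6 ER genes are Hspa5, Hsp90b1, Pdia4, Dnajb9, Herpud1 and Sdf2l1, and the 4 genes of the integrated stress response are Ddit3, Trib3, Chac1 and Asns. They are 10 of the 15619 genes that were tested, and each was above background on 15 of 15 arrays.

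RNA was measured on 15 one-colour arrays, 1 per tissue sample, in female FVB/N mice. Neo-liver (4 samples) is liver tissue that had grown under the kidney capsule and was microdissected from the kidney. The hosts were wild-type FVB/N mice given 2 intraperitoneal doses of 70 mg/kg monocrotaline, a plant alkaloid that injures the liver, 2 weeks apart, and afterwards 1000000 hepatocytes of FVB/N donors that carry a transgene for human α1-antitrypsin (hA1AT). The injured host liver (4 samples) and the host kidney (4 samples) came from mice of the same treatment. All 3 host tissues were taken on days 250 to 300, at 48 to 55 weeks of age. Control liver (3 samples) came from normal mice aged 20 weeks, so that monocrotaline, transplantation and age cannot be told apart in any comparison with it. Host cells grow among the donor hepatocytes in neo-liver, and no label separates them. The labels do not say which samples came from 1 mouse, so p-values measure the spread between these samples.

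Levels are log2 signals relative to the 75th percentile of the same array, which lay between 416 and 676 in neo-liver, 287 and 448 in host liver, 561 and 874 in host kidney, and 389 and 424 in control liver. Differences are log2 differences of group means ± SE from 1 limma fit of all arrays, with p-values adjusted over all 15619 genes and called under 0.05. In whole tissue, fewer cells of a type and less RNA per cell cannot be told apart. Markers of each tissue were set against its label: 18 of 18 hepatocyte markers were above background on all arrays of neo-liver, host liver and control liver, and 34 of 34 kidney markers on all arrays of host kidney. Neo-liver also held kidney markers, 33 of 34 on every array, and their level came to 19.8, 48.5, 20.6 and 32.5% of that in host kidney in neo-liver samples 1 to 4. The same measure was at most 0.0178% in host liver. Neo-liver and control liver arrays shared 1 slide, host kidney arrays filled another and host liver arrays 2 others, so that slide and tissue cannot be told apart in comparisons with either host organ.

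Proteins that are secreted are folded in the ER, and hepatocytes, which make most plasma proteins, carry a heavy folding load. Unfolded proteins draw the chaperone BiP, encoded by Hspa5, away from the sensors IRE1, PERK and ATF6, which then raise chaperones, enzymes of disulfide exchange and the machinery that removes misfolded proteins. PERK also phosphorylates the translation factor eIF2, as does GCN2 when amino acids run short. This integrated stress response lowers protein synthesis in general and favours the translation of ATF4, a factor that drives genes of amino acid supply and, with CHOP, genes of cell death.

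Some promoters of these genes carry short elements through which these factors are known to act, and the stretches that hold a match are shown with the letters those factors read. RefSeq promoters (GRCm38.p6) were searched on both strands over the 250 bases before each gene's start, which lie outside the transcript. The ER stress response element ERSE, CCAAT and CCACG with 9 free bases between them, which ATF6 binds together with NF-Y, was found in 2 of the 10 genes and in 0.113% of 32841 promoters. ERSE-II, ATTGG and CCACG with 1 free base between them, was found in Herpud1 and in 0.0304% of promoters. The element of C/EBP and ATF factors, TGATGNAA, which ATF4 binds, was found in Herpud1, Chac1 and Asns and in 3.45% of promoters. The IRE1 branch's element TGACGTGG was in 0 of the 10 and in 0.563% of promoters. Pdia4, Dnajb9, Sdf2l1, Ddit3 and Trib3 held none of these letters in this window. Capitals mark the fixed letters of each match, and no 2 matches overlapped.
Hspa5, chr2:34772005-34772063, plus strand, ERSE 65 bases before the start: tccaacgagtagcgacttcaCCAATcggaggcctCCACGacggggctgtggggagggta
Hsp90b1, chr10:86705513-86705676, minus strand, ERSE 212 bases and, on the other strand, 107 bases before the start: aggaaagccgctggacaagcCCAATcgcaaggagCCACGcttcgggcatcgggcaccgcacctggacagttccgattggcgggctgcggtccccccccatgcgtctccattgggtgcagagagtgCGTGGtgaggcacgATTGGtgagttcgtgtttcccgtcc
Herpud1, chr8:94386297-94386407, plus strand, TGATGNAA on the other strand 112 bases and ERSE-II 52 bases before the start: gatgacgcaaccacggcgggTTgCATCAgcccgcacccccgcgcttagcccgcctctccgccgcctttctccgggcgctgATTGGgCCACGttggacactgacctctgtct
Chac1, chr2:119351029-119351076, plus strand, TGATGNAA on the other strand 193 bases before the start: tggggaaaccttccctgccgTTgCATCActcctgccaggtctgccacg
Asns, chr6:7693210-7693252, minus strand, TGATGNAA 23 bases before the start: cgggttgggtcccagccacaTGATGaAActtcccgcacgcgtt

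**Figure D1:**
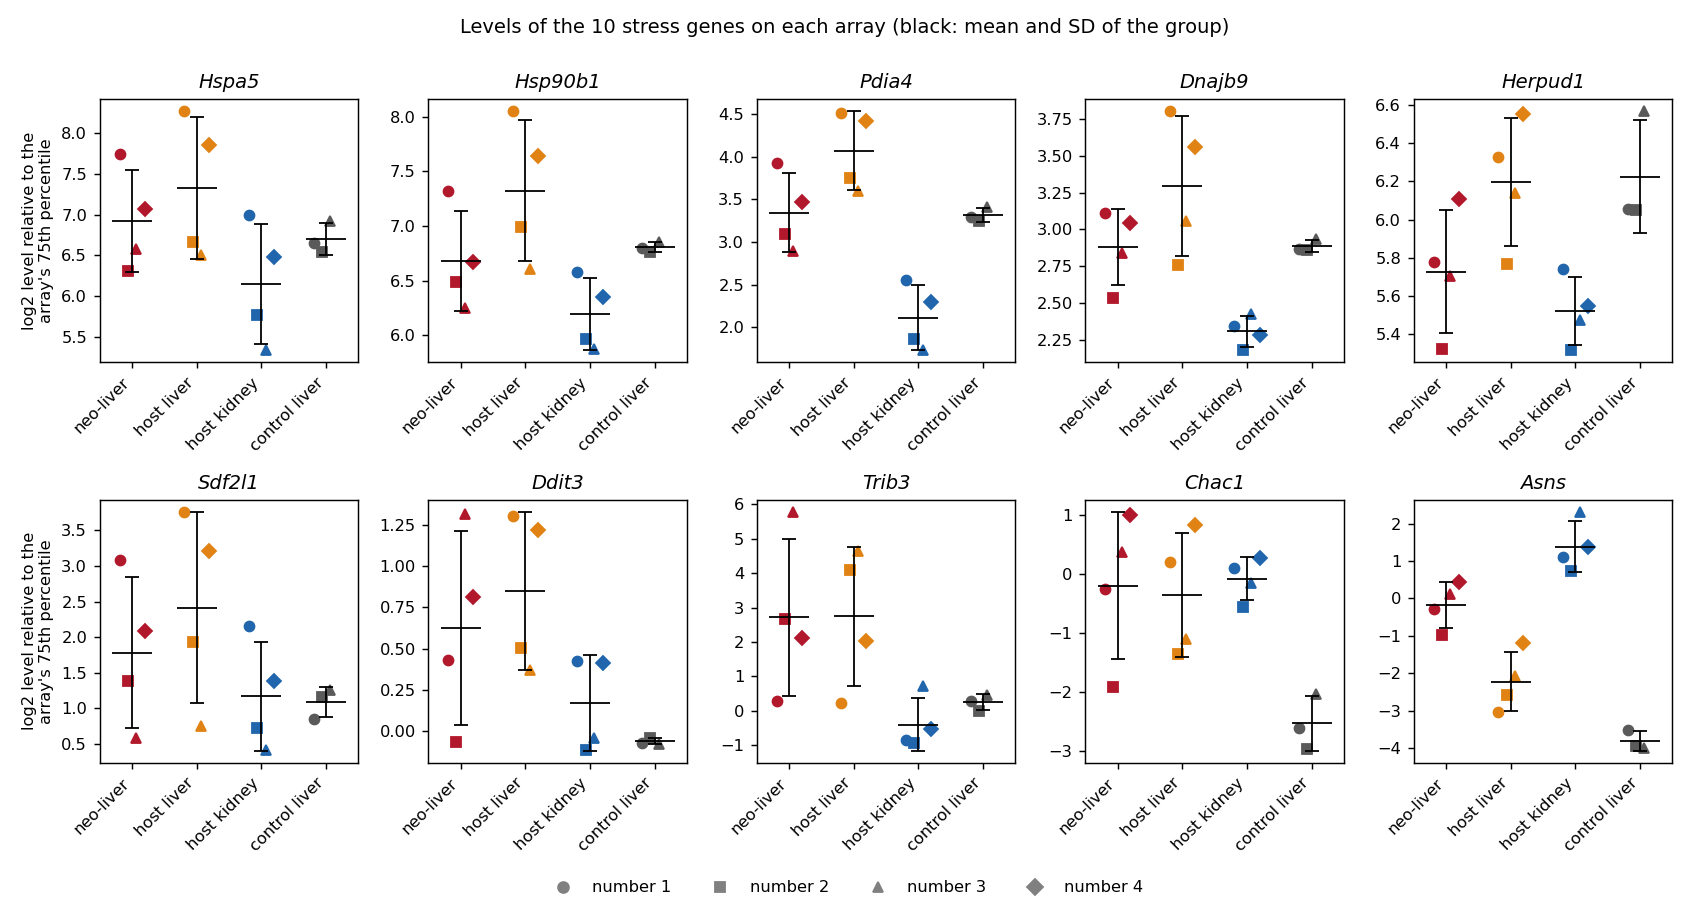
Levels of the 10 genes on each of the 15 arrays, as log2 signal relative to the array's 75th percentile, in neo-liver, host liver, host kidney and control liver. Each point is 1 array, its shape is the sample number, and black lines give the mean and SD of the group. Asns separates all 4 tissues, and Sdf2l1 has an SD of 1.06 in neo-liver, 1.34 in host liver, 0.77 in host kidney and 0.21 in control liver.

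The ER chaperones spread widely among the host samples and little among control livers. Hspa5, the gene of the chaperone BiP, had levels of 7.74, 6.31, 6.58 and 7.07 in neo-liver samples 1 to 4, 8.26, 6.67, 6.51 and 7.85 in host liver, 7.00, 5.77, 5.34 and 6.48 in host kidney, and 6.65, 6.54 and 6.92 in control liver. In every host tissue samples 1 and 4 were the higher pair, and the ranges of all 4 tissues overlapped. Hsp90b1, which encodes the ER chaperone GRP94, had levels of 7.32, 6.49, 6.25 and 6.67 in neo-liver, 8.05, 6.99, 6.61 and 7.64 in host liver, 6.58, 5.96, 5.88 and 6.35 in host kidney, and 6.80, 6.76 and 6.86 in control liver. Its host kidney levels all lay below host liver and control liver, and its other ranges overlapped. Dnajb9, a co-chaperone of BiP that restrains IRE1, had levels of 3.11, 2.53, 2.84 and 3.05 in neo-liver, 3.80, 2.76, 3.06 and 3.56 in host liver, 2.35, 2.18, 2.42 and 2.29 in host kidney, and 2.87, 2.86 and 2.93 in control liver. All kidney values lay below all liver values.

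The same high and low samples recurred in the enzyme and cofactor genes. Pdia4, a disulfide isomerase that pairs cysteines in the ER, had levels of 3.93, 3.09, 2.89 and 3.47 in neo-liver, 4.51, 3.76, 3.60 and 4.43 in host liver, 2.55, 1.86, 1.73 and 2.29 in host kidney, and 3.29, 3.25 and 3.41 in control liver. Every host liver lay above every control liver, every kidney lay below every liver sample, and neo-liver reached on both sides of control liver. Sdf2l1, part of the chaperone complex around BiP, had levels of 3.08, 1.39, 0.58 and 2.08 in neo-liver, 3.76, 1.94, 0.76 and 3.21 in host liver, 2.15, 0.73, 0.42 and 1.38 in host kidney, and 0.85, 1.17 and 1.26 in control liver. Its SD was 1.06 in neo-liver, 1.34 in host liver and 0.77 in host kidney, against 0.21 in control liver. Herpud1, an ER membrane protein of the degradation machinery, ranged from 5.32 to 6.11 in neo-liver, 5.77 to 6.55 in host liver and 5.31 to 5.74 in host kidney, and from 6.05 to 6.57 in control liver. Its kidney levels all lay below host liver and control liver.

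The genes of the integrated stress response took other forms. Ddit3, which encodes the factor CHOP, had levels of 0.43, -0.07, 1.32 and 0.81 in neo-liver, 1.31, 0.50, 0.37 and 1.22 in host liver, 0.42, -0.12, -0.05 and 0.41 in host kidney, and -0.07, -0.04 and -0.08 in control liver. The 4 host livers lay above all control livers, whereas neo-liver sample 2 lay among them. Trib3, a pseudokinase induced by ATF4 and CHOP, had levels of 0.28, 2.67, 5.78 and 2.12 in neo-liver, 0.22, 4.09, 4.63 and 2.03 in host liver, -0.84, -0.93, 0.72 and -0.52 in host kidney, and 0.30, 0.01 and 0.46 in control liver. In both host liver tissues sample 3 was highest and sample 1 lay within the range of control liver.

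Chac1 and Asns were the members that set control liver apart from the host tissues. Chac1, whose enzyme breaks down glutathione, had levels of -0.25, -1.91, 0.39 and 1.01 in neo-liver, 0.21, -1.36, -1.10 and 0.84 in host liver, 0.11, -0.55, -0.16 and 0.28 in host kidney, and -2.61, -2.96 and -2.04 in control liver. Every host sample lay above every control liver. Asns, asparagine synthetase, had levels of -0.27, -0.98, 0.11 and 0.43 in neo-liver, -3.04, -2.57, -2.08 and -1.19 in host liver, 1.11, 0.72, 2.32 and 1.38 in host kidney, and -3.52, -3.95 and -3.99 in control liver. The 4 tissues did not overlap in Asns: host kidney was highest, then neo-liver, host liver and control liver, and each step between neighbours passed the test (adjusted p = 0.00654, 0.00146 and 0.0212 in limma).

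For the other members most neighbouring tissues in the order of means were not called apart in the fit without sample number. Chac1 was ordered host kidney, neo-liver, host liver and control liver, and only the last step was called (adjusted p = 0.0231 in limma). Pdia4 was ordered host liver, neo-liver, control liver and host kidney, with the first and the last step called. For Dnajb9 host liver, control liver and neo-liver did not separate, and host kidney lay below neo-liver (adjusted p = 0.0252). Hspa5, Hsp90b1, Herpud1, Sdf2l1, Ddit3 and Trib3 had no called step between neighbours in that fit. Set directly against each other, host liver was higher than host kidney in Hspa5, Hsp90b1, Herpud1, Ddit3 and Trib3. Between host liver and host kidney 7 members were higher and 1, Asns, was lower, where 39.6 and 31.2% of all genes were called. With sample number as a block, further steps between neighbours were called. Hspa5, Herpud1 and Sdf2l1 were then lower in neo-liver than host liver (adjusted p between 0.00725 and 0.0459 in limma), where 37.2% of all genes were. Hsp90b1 and Sdf2l1 were higher in neo-liver than host kidney (adjusted p = 0.0123 and 0.0383 in limma), where 26.1% of all genes were. These calls depend on the scaling, as given below.

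Asns was the member that rose in neo-liver against host liver, and Pdia4 the member that fell. Asns averaged -0.18 ± 0.61 in neo-liver and -2.22 ± 0.79 in host liver (SD, n = 4 each), a difference of 2.04 ± 0.42 or 4.12-fold (adjusted p = 0.00146 in limma), higher in 4 of 4 pairs of the same sample number. Pdia4 averaged 3.35 ± 0.46 in neo-liver and 4.07 ± 0.46 in host liver (SD, n = 4 each), a difference of -0.73 ± 0.26 (adjusted p = 0.036 in limma). These were 1 of 10 genes higher and 1 of 10 lower, where 17.1% of all genes were called higher and 31.5% lower. Of all calls 35.2% were higher, against 50.9% after quantile normalization, 49.4% after normexp background correction and 23.1% after centring on the median. The median difference was -0.41 over the 10 genes and -0.21 over all genes.

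Host kidney was the tissue with the most Asns, and neo-liver carried kidney markers beside its rise. When each neo-liver array's kidney share of the host kidney signal was subtracted, the Asns difference from host liver was -0.040 ± 0.69 (adjusted p = 0.961 in limma), with 1 neo-liver array at the floor. The remainder was not scaled up to whole tissue, so the subtraction by itself lowers any gene that host kidney expresses. The neo-liver sample with the largest kidney share, sample 2 at 48.5%, had the lowest Asns of the 4 neo-livers. Sample 2 was also the lowest of the 4 host kidneys (0.72), whereas sample 1 was the lowest host liver (-3.04). The part of kidney tissue in the Asns level was otherwise not tested.

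All 6 ER genes were lower on average in neo-liver than host liver, but the direction depends on the scaling: after quantile normalization or normexp correction Hspa5 and Herpud1 lay above 0 and the other 4 below. The differences of those not called were -0.40 ± 0.44 for Hspa5, -0.64 ± 0.30 for Hsp90b1, -0.41 ± 0.20 for Dnajb9, -0.47 ± 0.20 for Herpud1 and -0.63 ± 0.64 for Sdf2l1. Within pairs of the same sample number, Hsp90b1, Pdia4, Dnajb9, Herpud1 and Sdf2l1 were lower in neo-liver in 4 of 4 and Hspa5 in 3 of 4. With sample number as a block all 6 were called lower (adjusted p between 0.000335 and 0.0459 in limma), where 37.2% of all genes were, and Asns higher, where 18.9% were. After quantile normalization with the same block only Pdia4 was, at -0.38 ± 0.09 (adjusted p = 0.0104), where 22.6% of all genes were. The median of the 6 minus the median of all genes was -0.34 at the scaling used here and -0.02 after quantile normalization, which raised Hspa5 by more than the median gene. Without the block, the Pdia4 call was lost after quantile normalization and normexp (adjusted p = 0.319 and 0.28), in a fit of the 2 groups alone (0.0865), and without host liver 1 or 4 (0.0977 and 0.0969) or neo-liver 2, 3 or 4 (0.0889, 0.102 and 0.052). Leaving out host liver 2 or 3 or neo-liver 1 or 4 added calls among Hsp90b1, Dnajb9 and Herpud1, with differences between -0.88 and -0.59. Of the other members, Ddit3 differed by -0.23 ± 0.28, Trib3 by -0.03 ± 1.06 and Chac1 by 0.16 ± 0.58.

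**Figure D2:**
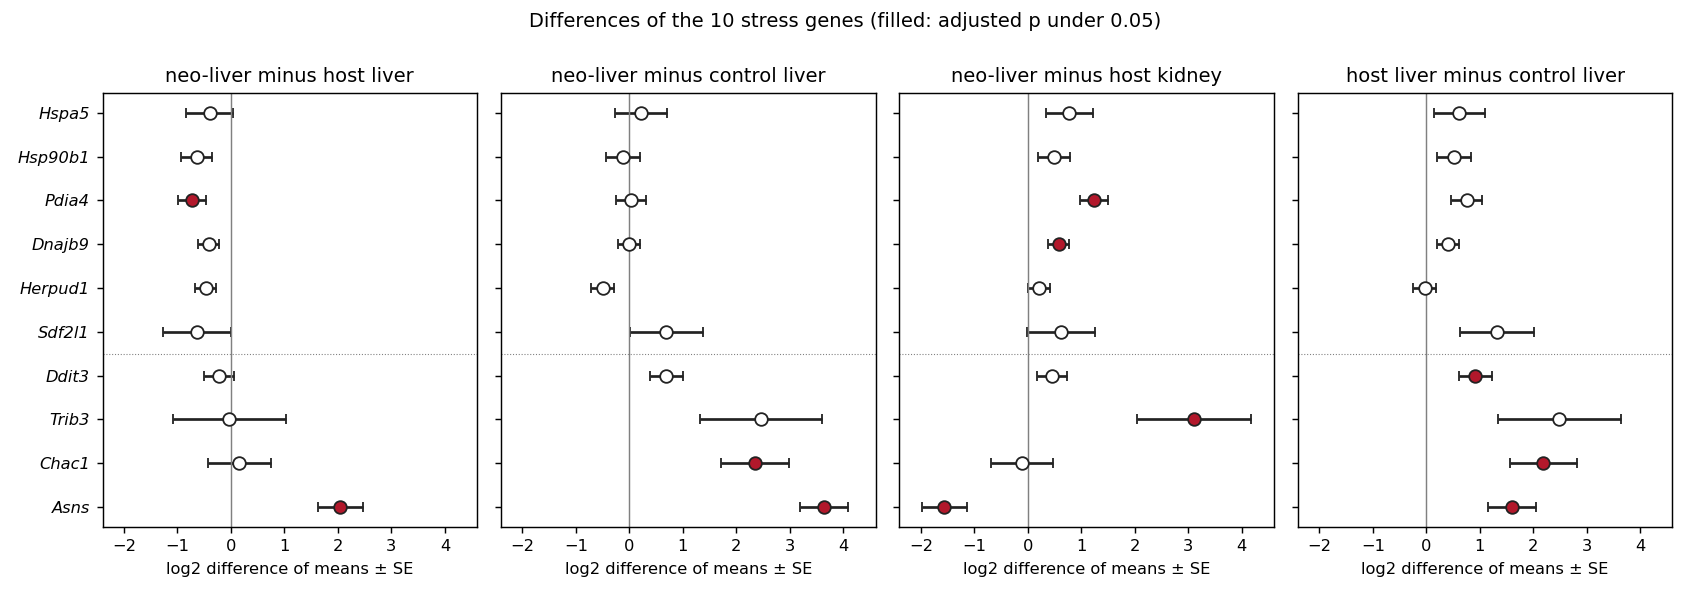
Differences of the 10 genes in 4 comparisons, as log2 difference of group means with its SE, ER genes above the dotted line and genes of the integrated stress response below it. Filled points passed the adjusted p of 0.05. Asns lies at 2.04, 3.64 and -1.56 in neo-liver against host liver, control liver and host kidney.

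Against control liver, neo-liver had higher Asns and Chac1 and 0 of the 6 ER genes called (limma; 0 higher and 1 lower at an unadjusted p under 0.05). Asns averaged -0.18 ± 0.61 in neo-liver (SD, n = 4) and -3.82 ± 0.26 in control liver (SD, n = 3), which is 12.5-fold or 3.64 ± 0.45 higher (adjusted p = 2.39e-05 in limma). Chac1 averaged -0.19 ± 1.26 in neo-liver (SD, n = 4) and -2.54 ± 0.47 in control liver (SD, n = 3), 5.09-fold or 2.35 ± 0.63 higher (adjusted p = 0.0072). These are 2 of 10 genes higher and 0 lower (limma; 3 higher and 1 lower at an unadjusted p under 0.05), where 20.4% of all genes were called higher and 29.8% lower. Of all calls 40.6% were higher, against 52.2% after quantile normalization and 51.5% after normexp. The median difference was 0.46 over the 10 genes and -0.15 over all genes.

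Trib3 and Ddit3 lay above control liver on average but did not pass the test. Trib3 differed by 2.46 ± 1.14 (adjusted p = 0.0892 in limma) and Ddit3 by 0.69 ± 0.30 (adjusted p = 0.0746), each above all control livers in 3 of 4 neo-livers. Trib3 was called without neo-liver 1 (3.27, adjusted p = 0.0266) and Ddit3 without neo-liver 2 (0.92 ± 0.28, adjusted p = 0.0172). ER genes differed by 0.22 ± 0.48 for Hspa5, -0.12 ± 0.32 for Hsp90b1, 0.03 ± 0.28 for Pdia4, -0.01 ± 0.21 for Dnajb9 and 0.69 ± 0.69 for Sdf2l1. A second probe of Dnajb9 gave 0.41 ± 0.36. Herpud1 differed by -0.50 ± 0.21 (adjusted p = 0.0675), and was called lower with sample number as a random block (adjusted p = 0.0452) and without neo-liver 4 (-0.63 ± 0.21, adjusted p = 0.031).

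Kidney tissue also had more of both called genes than control liver. Asns was 36.7-fold higher in host kidney than control liver (5.20 ± 0.45, adjusted p = 2.04e-07 in limma) and Chac1 2.46 ± 0.63 higher (adjusted p = 0.00344). After subtraction of the kidney share the differences between neo-liver and control liver were 1.56 ± 0.75 for Asns (adjusted p = 0.0797) and 1.39 ± 1.01 for Chac1 (adjusted p = 0.23), and neither was called. For each of these genes 1 neo-liver array was then at the floor, which lowers the mean and widens the spread. Herpud1 was then called lower (-1.02 ± 0.32, adjusted p = 0.0136), but the subtraction by itself lowers a gene that kidney also expresses. The summed level of the 9 fibroblast markers ranged from 98.4 to 186 in neo-liver and 58.6 to 71.6 in control liver, and 8 of the 9 were called higher. Their part was not tested.

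Against host kidney, neo-liver had higher Pdia4, Dnajb9 and Trib3 and lower Asns. Pdia4 averaged 3.35 ± 0.46 in neo-liver and 2.11 ± 0.38 in host kidney (SD, n = 4 each), 1.24 ± 0.26 higher (adjusted p = 0.00146 in limma). Dnajb9 was 0.57 ± 0.20 higher (adjusted p = 0.0252), and its second probe gave 0.84 ± 0.33. Trib3 averaged 2.71 ± 2.29 in neo-liver and -0.40 ± 0.76 in host kidney (SD, n = 4 each), 3.11 ± 1.06 higher (adjusted p = 0.0246), although neo-liver 1 lay within the kidney range. Asns was 2.95-fold lower in neo-liver (-1.56 ± 0.42, adjusted p = 0.00654). These are 3 of 10 genes higher and 1 lower, where 23.2% of all genes were called higher and 29.5% lower. The median difference was 0.53 over the 10 genes and -0.09 over all genes.

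All 6 ER genes, Ddit3 and Trib3 were higher in neo-liver than the host kidney of the same sample number in 4 of 4 pairs, except that after quantile normalization or normexp Herpud1 lay below 0 on average. With sample number as a block, Hspa5 (0.78 ± 0.15, adjusted p = 0.00216 in limma), Hsp90b1 (0.49 ± 0.13, adjusted p = 0.0123) and Sdf2l1 (0.61 ± 0.22, adjusted p = 0.0383) were called as well, which made 6 of 10 higher where 26.1% of all genes were, and Asns was lower where 33.2% were. With quantile normalization and the block these were 5, without Hsp90b1, where 25.0% were. The Dnajb9 call was lost without host kidney 2 or 4 (adjusted p = 0.0638 and 0.0512) or neo-liver 1 or 4 (0.0679 and 0.065). The Trib3 call was lost without host kidney 1 or 2 (0.0564 and 0.0589) or neo-liver 3, where the difference was 2.09 ± 0.91 (0.0763). Ddit3, at 0.46 ± 0.28, was called without neo-liver 2 (0.69 ± 0.26, adjusted p = 0.0446). After subtraction of the kidney share Dnajb9 was 0.20 ± 0.26 higher and not called (adjusted p = 0.498), and Asns differed by -3.64 ± 0.69 (adjusted p = 0.000408). Both values include the drop that the subtraction itself makes. Chac1 differed by -0.11 ± 0.58.

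The injured host liver itself had higher Chac1, Asns and Ddit3 than control liver. Chac1 averaged -0.35 ± 1.05 in host liver (SD, n = 4) and -2.54 ± 0.47 in control liver (SD, n = 3), 4.55-fold or 2.19 ± 0.63 higher (adjusted p = 0.0231 in limma). Asns averaged -2.22 ± 0.79 in host liver and -3.82 ± 0.26 in control liver, 3.02-fold or 1.60 ± 0.45 higher (adjusted p = 0.0212). Ddit3 averaged 0.85 ± 0.48 in host liver and -0.07 ± 0.02 in control liver, 0.92 ± 0.30 higher (adjusted p = 0.0428). The 3 are all genes of the integrated stress response, and 0 genes were lower, where 13.4% of all genes were called higher and 11.2% lower (limma; 5 higher and 0 lower at an unadjusted p under 0.05). Of all calls 54.5% were higher, against 73.2% after centring on the median. The kidney share of host liver was at most 0.0178%. The summed level of 9 fibroblast markers, all above background on every array, ranged from 101 to 115 in host liver and 58.6 to 71.6 in control liver, and 1 of the 9 was called higher. Their part in these differences was not tested.

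The ER genes lay above control liver in host liver without passing the test. The differences were 0.76 ± 0.28 for Pdia4 (adjusted p = 0.0685 in limma), 1.32 ± 0.69 for Sdf2l1, 0.62 ± 0.48 for Hspa5, 0.52 ± 0.32 for Hsp90b1 and 0.41 ± 0.21 for Dnajb9, and -0.03 ± 0.21 for Herpud1, which lay above 0 after centring on the median. The second probe of Dnajb9 gave 0.86 ± 0.36. Pdia4 was called with sample number as a block (adjusted p = 0.0283), after centring on the median (0.90 ± 0.27, adjusted p = 0.0252) and without host liver 3 (0.91 ± 0.29, adjusted p = 0.0428), and Dnajb9 without host liver 2 (0.59 ± 0.19, adjusted p = 0.0355). Trib3 differed by 2.49 ± 1.14 (adjusted p = 0.129) and was called without host liver 1 (3.33 ± 1.08, adjusted p = 0.0399). The median difference was 0.84 over the 10 genes and 0.08 over all genes.

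Each of these 3 calls was lost without some single samples. The Ddit3 call was lost without any 1 of the control livers (adjusted p between 0.1 and 0.109 in limma), without host liver 1 or 4 (0.0941 and 0.104), with sample number as a block (0.0509), with slide as a random block (0.0555), after quantile normalization (0.0564), without the filter on dim probes (0.0582) and with the 2 groups alone (0.0522). The Chac1 call was lost without control liver 1 or 2 (0.0711 and 0.0871) or host liver 4 (1.79 ± 0.62, 0.0617). The Asns call was lost without control liver 2 or 3 (0.0704 and 0.0717), without host liver 4 (1.25 ± 0.42, 0.0535) and after normexp (0.81 ± 0.36, 0.125).

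Levels of the ER genes went with the sample number, which neo-liver, host liver and host kidney share. Samples 1 and 4 were the highest pair in 17 of the 18 combinations of ER gene and host tissue, Dnajb9 in host kidney being the exception. Averaged over the 3 tissues, Hspa5 deviated from the tissue mean by 0.87, -0.54, -0.66 and 0.33 in samples 1 to 4, and Sdf2l1 by 1.21, -0.44, -1.20 and 0.43. In the additive fit of tissue and number over the 12 host arrays, chosen after the levels had been seen, number was called for Hspa5 (adjusted p = 0.0113, limma F test), Pdia4 (0.0113), Sdf2l1 (0.0124) and Hsp90b1 (0.0239), which is 4 of 10 where 7.75% of all genes were. The other members had adjusted p between 0.0568 and 0.295. Of the variance within tissues, the number carried 97.1% for Pdia4, 94.6% for Hspa5 and 93.4% for Sdf2l1, against a median of 80.2% over the 10 genes and 59.1% over all genes.

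**Figure D3:**
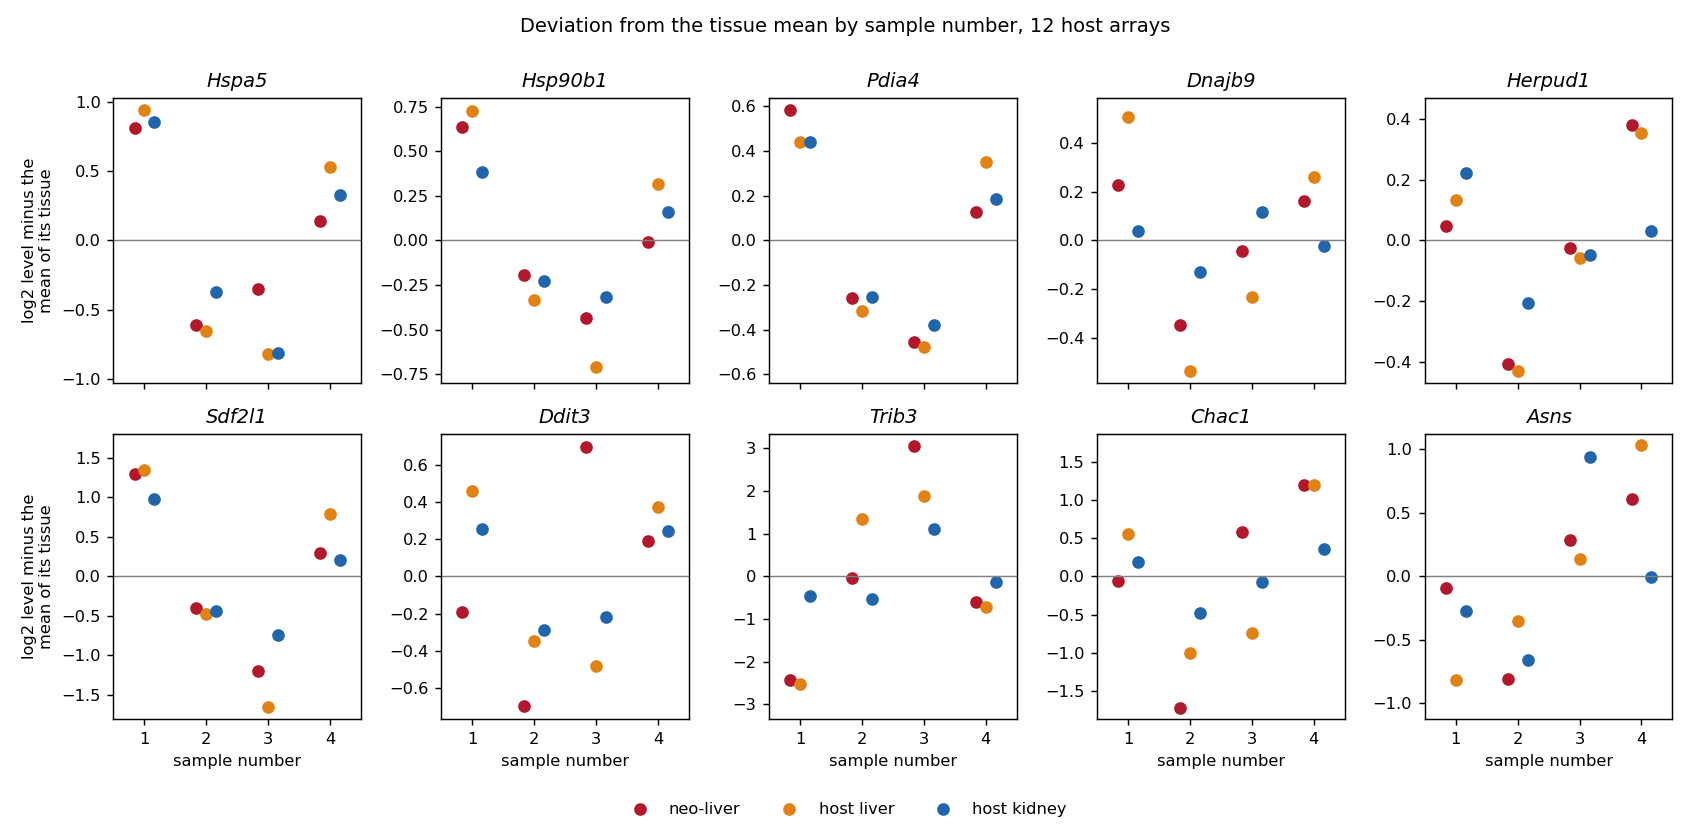
Deviation of each of the 12 host arrays from the mean of its tissue, as log2 level, by sample number for the 10 genes, coloured by tissue. For Hspa5, Pdia4 and Sdf2l1 samples 1 and 4 lie above 0 and samples 2 and 3 below 0 in all 3 tissues, whereas Trib3 is lowest in sample 1 of both liver tissues and highest in sample 3 of every tissue.

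The genes of the integrated stress response followed the numbers differently. Trib3 deviated by -1.80, 0.26, 2.02 and -0.48 in samples 1 to 4, with its highest value in sample 3 of every tissue. Chac1 deviated by 0.23, -1.07, -0.08 and 0.92 and Asns by -0.40, -0.60, 0.45 and 0.55, both lowest in sample 2 on average. Ddit3, with 0.17, -0.44, 0.00 and 0.27, shared least with the number (44.9% of its variance within tissues). Number 1 had the lowest and number 3 the highest 75th percentile of signal in each host tissue, with 416, 598, 676 and 669 in neo-liver samples 1 to 4, 287, 347, 448 and 395 in host liver, and 561, 800, 874 and 748 in host kidney. Its part in these patterns was not tested. Neo-liver samples lay on 1 slide and host kidney samples on another, while host liver samples 1 and 2 were on one slide and 3 and 4 on another. The part of slide in these patterns was not tested.

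**Figure D4:**
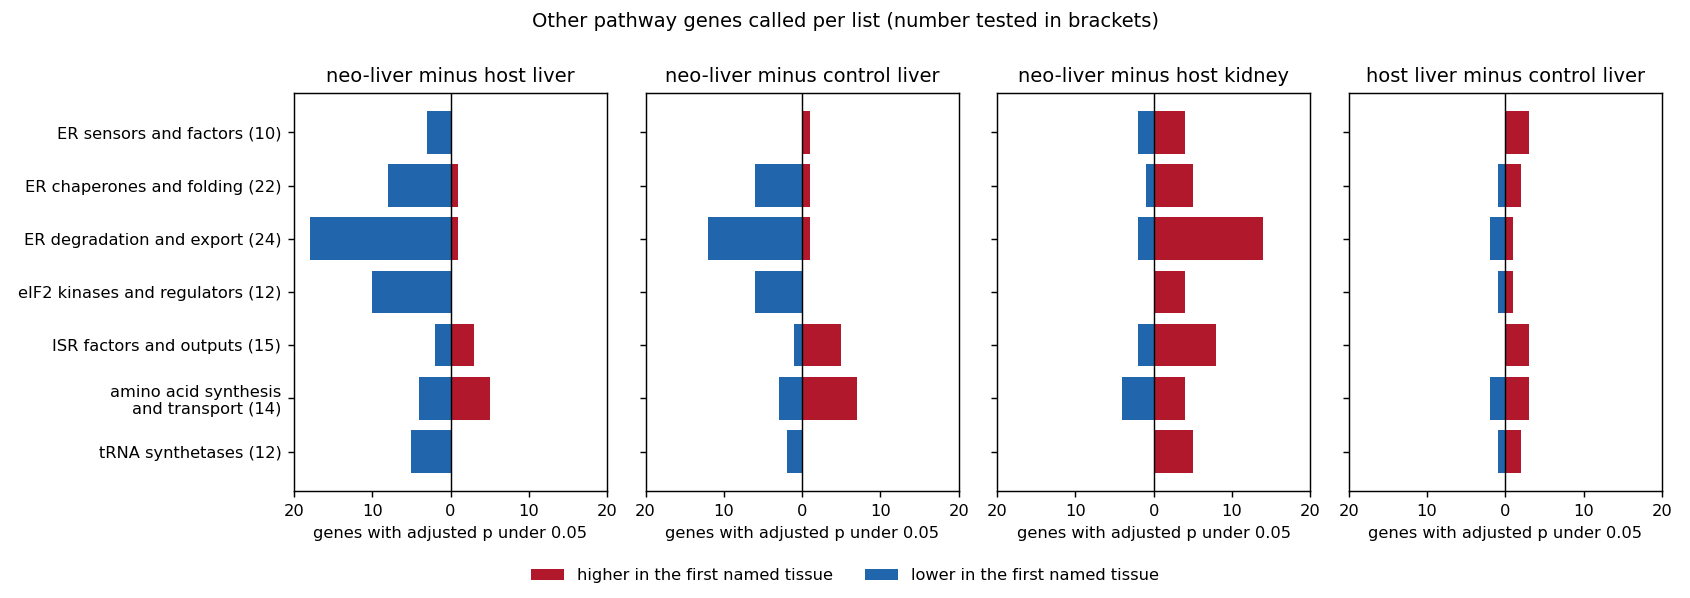
Number of other pathway genes called higher (red, to the right) and lower (blue, to the left) in each of 7 lists, with the number tested in brackets, in 4 comparisons. ER degradation and export has 18 genes lower in neo-liver against host liver (5 after quantile normalization), where 31.5% of all genes were lower. It has 14 genes higher against host kidney (11 after quantile normalization), where 23.2% of all genes were higher.

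Of 111 further genes of the same pathways, in 7 lists, 109 were tested, Pycr1 and Slc7a11 being left out. Between neo-liver and host liver 10 were higher and 50 lower, or 9.17 and 45.9% of them, where 17.1 and 31.5% of all genes were called, with a median of -0.45 against -0.21 over all genes. After quantile normalization these counts were 11 and 20, where 17.2 and 16.6% of all genes were called. Against control liver 15 were higher and 30 lower in neo-liver (median -0.26 against -0.15), but after quantile normalization the balance turned to 23 higher and 12 lower, and after normexp to 24 and 13. Of all genes 20.4% were higher and 29.8% lower in that comparison. Against host kidney 44 were higher and 11 lower in neo-liver (median 0.32 against -0.09), where 23.2 and 29.5% of all genes were called, and 40 and 15 after quantile normalization. Host liver had 15 higher and 7 lower than control liver (median 0.22 against 0.08), where 13.4 and 11.2% of all genes were called, and 32 and 4 after centring on the median.

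Among 10 ER sensors and their factors, Xbp1, whose spliced form is the factor of the IRE1 branch, was lower in neo-liver than host liver (-0.91 ± 0.13, adjusted p = 7.56e-05 in limma) and higher in host liver than in control liver (0.95 ± 0.14, adjusted p = 0.000455). Eif2ak3, which encodes PERK, was higher than in control liver both in neo-liver (0.97 ± 0.17) and in host liver (0.82 ± 0.17), but after subtraction of the kidney share it differed by -0.05 ± 0.46 between neo-liver and control liver. That value includes the drop that the subtraction itself makes. The sensor Atf6 was lower in neo-liver than host liver (-0.73 ± 0.20), and Creb3l3, a liver factor of the same family, was 7.18 ± 0.74 higher in neo-liver than host kidney. Of these 10 sensors and factors, 0 rose in neo-liver against host liver (limma; 0 at an unadjusted p under 0.05), where 17.1% of all genes did. In the same comparison 3 fell, where 31.5% of all genes did, 2 after quantile normalization (16.6%) and 6 after centring on the median (44.8%). In host liver against control liver 3 rose, where 13.4% of all genes did, and 5 after centring on the median (20.8%). There 0 fell (limma; 0 at an unadjusted p under 0.05), where 11.2% of all genes did.

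Of 22 chaperone and folding genes, 1 was higher and 8 were lower in neo-liver than host liver, with 2 lower after quantile normalization and 17 after centring on the median. The 8 were 36.4% of the list, near the 31.5% of all genes called lower. Of 24 genes of degradation and export, 1 was higher and 18, or 75%, were lower, with 5 lower after quantile normalization and 20 after centring on the median. The nucleotide exchange factor of BiP, Sil1, differed by -0.86 ± 0.08 and the oxidase Ero1b by -0.86 ± 0.17. Os9, a lectin of the degradation pathway, differed by -0.83 ± 0.10, and Derl2, a channel component, by -0.82 ± 0.16, a call that was lost after quantile normalization (-0.32, adjusted p = 0.142 in limma). Against host kidney, 23.2% of all genes were called higher in neo-liver and 29.5% lower. Of the 22, 5 were higher, led by Fkbp11, which is near that share, and 1 was lower. Of the 24, 14 were higher and 2 lower. The higher ones included the coat protein gene Sec24d (1.80 ± 0.19) and Derl2 (1.43 ± 0.16). Hepatocyte markers moved in the same directions: 12 of 18 were lower in neo-liver than host liver and 17 of 18 higher than in host kidney, with summed levels of 7454 to 11372 in neo-liver, 12785 to 18981 in host liver, 163 to 281 in host kidney and 13337 to 14201 in control liver. Their part in these counts was not tested.

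Fkbp11 was the 1 chaperone and folding gene that was higher in neo-liver than host liver, and Derl3 the 1 gene of degradation and export that was higher in neo-liver than control liver. Fkbp11, a prolyl isomerase abundant in secretory cells, was higher in neo-liver than host liver (2.60 ± 0.29), control liver (2.91 ± 0.32) and host kidney (2.72 ± 0.29). Derl3, a degradation gene, was higher than in control liver both in neo-liver (2.63 ± 0.45) and in host liver (3.14 ± 0.45). Both are known in plasma cells. The summed level of 7 plasma cell markers ranged from 10.2 to 21.1 in neo-liver, 17.3 to 29.6 in host liver, 7.71 to 23.8 in host kidney and 22.7 to 28.9 in control liver. Taken singly, 4 of the 7 were higher and 1 lower in neo-liver than control liver at an unadjusted p under 0.05 in limma. Against host liver 2 were higher and 1 lower, and in host liver against control liver 3 were higher and 1 lower. Of all genes 50.2, 48.6 and 24.7% passed even the adjusted p of 0.05 in these comparisons, in either direction. The marker Tnfrsf17 was not well above background on any liver array. Jchain, the joining chain of secreted antibodies, was 1.74 ± 0.55 higher in neo-liver than host liver and 2.30 ± 0.59 higher in host liver than in control liver. The part of plasma cells was not tested.

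Of 12 genes around eIF2, 10 were lower in neo-liver than host liver, where 31.5% of all genes were, and 6 after quantile normalization, where 16.6% were, and 0 were higher (limma; 0 at an unadjusted p under 0.05). Against control liver 6 were lower in neo-liver, where 29.8% of all genes were, and 5 after quantile normalization, where 21.1% were. In that comparison 0 were higher (limma; 1 at an unadjusted p under 0.05), where 20.4% of all genes were, and 1 after quantile normalization. Ppp1r15b, a constant subunit of the eIF2 phosphatase, differed by -0.79 ± 0.11 from host liver and by -1.17 ± 0.12 from control liver. Its inducible counterpart Ppp1r15a (GADD34) was 1.19 ± 0.23 higher in host liver than in control liver (adjusted p = 0.00302 in limma). Eif2b1, a subunit of the exchange factor of eIF2, differed by -0.73 ± 0.11 between neo-liver and host liver.

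Gdf15 and Nupr1 stood out among the 15 further factors and outputs of the integrated stress response. Of the 15, neo-liver had 5 higher and 1 lower than control liver, where 20.4 and 29.8% of all genes were called, and 0 were lower after quantile normalization (limma; 0 at an unadjusted p under 0.05). In host liver 3 were higher than in control liver and 0 lower (limma, 1 at an unadjusted p under 0.05), where 13.4 and 11.2% of all genes were called. After quantile normalization 2 were higher, where 12.9% of all genes were, which is near that share. Gdf15, a stress hormone, was 4.32 ± 0.37 higher in neo-liver and 5.06 ± 0.37 higher in host liver than in control liver. Nupr1, a stress-induced chromatin factor, was 4.17 ± 0.43 and 1.94 ± 0.43 higher in the same comparisons, and 2.23 ± 0.40 higher in neo-liver than host liver. Host kidney had the highest mean level of Nupr1, 3.04, against 2.16 in neo-liver. After subtraction of the kidney share Nupr1 was not called in neo-liver against control liver (2.03 ± 1.24, adjusted p = 0.159 in limma) or host liver (0.09 ± 1.15, adjusted p = 0.946), whereas Gdf15 was still 4.18 ± 0.38 higher than in control liver. Atf3, a factor downstream of ATF4, was 2.44 ± 0.81 higher in host liver than in control liver (adjusted p = 0.0437 in limma), but not called after quantile normalization (adjusted p = 0.0581). Stc2, a secreted glycoprotein, was not well above background on any array of host liver or control liver, and was at least 3.60-fold higher in neo-liver than host liver and at least 4.76-fold higher than in control liver, where a bound sets the neo-liver mean against the higher, on each array, of the gene's own signal and the lowest signal above background. Against host kidney, where it was above background on all arrays, Stc2 was lower in neo-liver (adjusted p = 0.0346 in limma), and not called after quantile normalization (adjusted p = 0.143).

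Of 14 amino acid genes, neo-liver had 7 higher and 3 lower than control liver, where 20.4 and 29.8% of all genes were called, and 5 higher and 4 lower against host liver, where 17.1 and 31.5% were. The serine synthesis enzymes Psat1 and Phgdh were 5.27 ± 0.70 and 3.05 ± 0.29 higher in neo-liver than control liver, and 2.96 ± 0.65 and 2.41 ± 0.27 higher than in host liver, with Psat1 above background on 3 of 4 host livers and 2 of 3 control livers. Shmt2, which converts serine to glycine in mitochondria, was lower in both comparisons (-0.91 ± 0.21 from control liver and -0.91 ± 0.20 from host liver). The mitochondrial folate enzyme Mthfd2 was at least 4.71-fold higher in neo-liver than control liver. Host kidney had more of the genes that were higher: Psat1 was 6.22 ± 0.70 and Phgdh 4.16 ± 0.29 higher in host kidney than control liver, Mthfd2 was at least 6.02-fold higher, and Phgdh was lower in neo-liver than host kidney (-1.11 ± 0.27). After subtraction of the kidney share Psat1 was not called against control liver (2.69 ± 1.21, adjusted p = 0.0642 in limma) or host liver (0.38 ± 1.12, adjusted p = 0.773). Phgdh was still called against both (1.64 ± 0.29 and 1.00 ± 0.26), and Mthfd2 against control liver (1.78 ± 0.64, adjusted p = 0.0261). The cationic amino acid carrier Slc7a1 was 1.34 ± 0.20 higher in host liver than in control liver. Cbs and Cth, enzymes of cysteine synthesis, were lower in neo-liver than control liver (-1.70 ± 0.19 and -2.80 ± 0.34). Of 12 synthetases 5, or 41.7%, were lower in neo-liver than host liver, where 31.5% of all genes were, led by Aars (-1.05 ± 0.13), with 2 after quantile normalization and 8 after centring on the median, and 0 were higher, 1 after quantile normalization (limma; 0 at an unadjusted p under 0.05). The synthetase gene Cars was 1.37 ± 0.22 higher in host liver than in control liver.

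The sample number was also carried by other ER genes. It was called for 8 of 22 chaperone and folding genes, 2 of 24 of degradation and export, 4 of 15 factors and outputs of the integrated stress response, 2 of 14 amino acid genes and 1 of 12 synthetases, and for 0 of 10 sensors and 0 of 12 eIF2 genes (limma F test; 4 and 3 at an unadjusted p under 0.05), with 7.75% over all genes. Creld2, an ER-resident stress-induced protein, deviated by 1.28, -0.90, -0.80 and 0.41 in samples 1 to 4, and Manf, an ER protein that is secreted under stress, by 0.89, -0.54, -0.79 and 0.44. Atf4 itself deviated by 0.24, -0.52, 0.10 and 0.19, lowest in sample 2.

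Likeness was measured as the root mean square difference between genes over the 15 arrays, each gene centred on its own mean. The closest genes to Hspa5 were Manf (0.21), the ER chaperone gene Hyou1 (0.23) and the ubiquitin ligase gene Syvn1 (0.29), where Hspa5 itself had an SD of 0.76. Those closest to Hsp90b1 were Slc35b1 (0.13), Dnajb11 (0.14) and Pdia6 (0.19), and those closest to Sdf2l1 were Manf (0.33), Creld2 (0.41) and Oas2 (0.42). The 3 closest to Asns were Ier3 (0.46), Slc16a13 (0.47) and Nupr1 (0.48), against an SD of 2.06. Trib3, with an SD of 2.08, was nearest to Gadd45b (0.87) and Krt31 (0.96), and Chac1 had Plaur at 0.49. Pdia4 was nearest to Parp3 (0.23), Dnajb9 to Adgre5 (0.13), Herpud1 to St7l (0.16) and Ddit3 to Gdpd1 (0.24).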

How the data were processed

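Total RNA was labelled with Cy3 and hybridised to one-colour Agilent arrays, 1 per sample. Per the file headers, Agilent Feature Extraction 10.10.1.1 wrote the deposited intensity values, with background subtraction and detrending inside an array but no scaling across arrays. The deposited table of log2 values differed from the log2 processed signal by 1 constant for each array, within 0.01 for 99.8% of probes. How that table was made is not given in these sources.

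Replicate spots of a probe were averaged (55681 probes), and each array's 75th percentile of log2 signal was subtracted. Probes well above background on every array of at least 1 group were kept (34984, of which 20388 could be named by RefSeq accession and 14596 could not). The brightest probe stood for a gene. No spot was saturated, and the number of arrays limits the precision. All 15 arrays entered 1 limma fit (R 4.3.3, limma 3.58.1, statmod 1.5.0, data.table version 1.17.8), with two-sided Benjamini-Hochberg adjusted p, a threshold of 0.05 and 15619 genes, as tested on simulated data.

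The members and lists were chosen with earlier results of these data known. Named genes are the members, up to 3 called genes per list, comparison and direction whose groups did not overlap, and the 3 closest genes to each member. Jchain, and the genes whose deviations by sample number or place in a list are given, were chosen after their values were seen. The kidney share took 31 kidney markers with at least 8-fold more signal in host kidney than control liver, set each linear signal, less that of control liver, as a percentage of the like value for host kidney, and took the median. Its subtraction took that share of the host kidney signal off each neo-liver array, without scaling up the remainder. Residuals of the host tissues correlated best with the same sample number in 12 of 12 cases (r across genes 0.179 to 0.577), so numbers were used as a block. The settings varied were median centring, quantile normalization, the deposited log2 values, normexp (median spot and background signals, offset 50), no filter, a strict filter, the mean of probes, 2 groups only, number or slide as a block, subtraction of the kidney share and leaving out each array.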

Additional observations from a re-analysis of the deposited data

How the results depend on the processing

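Of 750 recomputed differences of the 10 genes over the 4 comparisons, 635 kept direction and side of the threshold, 47 that were called neither way changed sign, 35 lost a call and 32 gained one. The differences with the deposited values are among them and nearly repeat the scaling used here. In 1 case a called difference reversed, Asns between neo-liver and host liver at -0.040 after subtraction of the kidney share. It was not called there (adjusted p = 0.961 in limma), and 1 neo-liver array was at the floor. Members called lower in neo-liver than in host liver were 1 at the settings used here, 0 after quantile normalization, normexp or with 2 groups only, 4 after median centring or kidney subtraction and 6 with the replicate block. Kidney subtraction by itself lowers genes that kidney expresses. Of all genes 31.5% were called lower at the settings used here, 16.6% after quantile normalization and 16.9% after normexp. The share was 44.8% after median centring and 37.2% with the replicate block. Members called higher there were 0 after kidney subtraction. At an unadjusted p under 0.05 in limma these counts of 0 were 0 after quantile normalization, normexp and kidney subtraction, and 1 with 2 groups only. Against control liver, 0 were higher in neo-liver after kidney subtraction (limma; 0 at an unadjusted p under 0.05), and 1 was lower both after it and with the replicate block. Against host kidney, 6 were higher in neo-liver with the replicate block, where 26.1% of all genes were. With the block after quantile normalization, a pairing of choices added after seeing the data, 5 were higher, where 25% of all genes were. The block changed no other count in the comparisons of neo-liver by over 1.5 times. Leaving out 1 array gave 1 higher and 0 to 3 lower for neo-liver against host liver, 2 to 3 higher and 0 to 1 lower against control liver, 1 to 4 higher and 1 lower against host kidney, and 0 to 4 higher and 0 lower for host liver against control liver, where without control liver 2 or host liver 4, with 0 higher, 3 passed an unadjusted p under 0.05 in limma. The effect of sample number was called for 5 members after quantile normalization, 4 after median centring, 4 with the deposited values, whose scaling is nearly that used here, and 6 with normexp. Of all genes 9.17, 4.94, 7.63 and 13.5% were called in these fits. Without sample 1 or 2 it was called for 0 (limma F test; 8 and 5 at an unadjusted p under 0.05), without sample 3 for 2 and without sample 4 for 3, where 0.499, 0.186, 0.391 and 1.43% of all genes were called. Fewer arrays were tested in those 4 fits, and the cause of the other changes was not tested.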
